A study of Homo sapiens with 24 samples.

Results

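Metallothioneins and the zinc exporter SLC30A1 were followed here through 24 RNA sequencing libraries of 2 human pancreatic cell lines. The members were the rows whose gene symbol is MT1E, MT1F, MT1G, MT1M, MT1X, MT2A or SLC30A1, which is 7 of the 48162 genes in each table. Levels are FPKM, the fragments assigned to a gene scaled to the length of the gene and to the depth of the library. hTERT-HPNE (HPNE) is a pancreatic line immortalised with telomerase, and HPDE-H6c7 (HPDE) is a pancreatic duct line immortalised with papillomavirus oncogenes. Both grew in keratinocyte serum-free medium. Each line received 1 of 4 treatments for 24 h. The untreated wells got fresh serum-free medium. The residual medium wells got the medium left after isolation of extracellular vesicles (EVs) and are the study's negative control. The remaining wells got 1e10 EVs per well, either from PANC-1, an established pancreatic cancer line, or from the cancer cells named PPCL-68. Each of the 8 groups had 3 libraries, described in the series as biological triplicates, and how wells, days and plates were shared is not given in the sources used here. The study asked what EVs of cancer cells do to normal pancreatic cells.

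Metallothioneins are small cysteine-rich proteins that bind zinc and copper and buffer them inside the cell. When free zinc rises, it binds the transcription factor MTF1, which then acts at metal response elements in the promoters of metallothionein genes and of SLC30A1, so the genes are widely used as a readout of cellular zinc. Metallothionein genes also respond to glucocorticoids, oxidative stress and heat shock. SLC30A1 (also called ZnT1) sits in the plasma membrane and carries zinc out of the cell. In the pancreas zinc is stored and secreted by both the exocrine and the endocrine cells.

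The libraries held 29209142 to 46490312 reads over genes, a number recovered from the steps of the FPKM values. Of the marker lists, the 5 duct epithelium markers (EPCAM, KRT19, KRT8, KRT18 and CDH1) summed to 4.13 to 11.9 FPKM in HPNE and to 824 to 2337 FPKM in HPDE, so that HPNE nearly lacks the defining epithelial transcripts. The 5 mesenchymal markers (VIM, COL1A1, COL1A2, FN1 and CDH2) summed to 8520 to 12540 FPKM in HPNE and 78.8 to 152 FPKM in HPDE. The 5 acinar and 3 endocrine markers held at most 2 reads in any library. Within HPDE the duct sum was 2044 to 2337 FPKM in the 6 libraries without EVs, 954 to 1117 FPKM with PANC-1 EVs and 824 to 853 FPKM with PPCL-68 EVs, and the part of this in the results for HPDE was not tested. In each HPNE group 1 library lay apart from the other two: untreated 3, residual medium 3, PANC-1 EV 1 and PPCL-68 EV 1, at 2.05 to 3.31 times the distance between the other two, against 1.08 to 1.24 times in HPDE. Differences of tested members without these 4 libraries are given beside HPNE results, with no adjusted p. The 4 were picked from these same data, and leaving them out keeps only the closest pair of each group. That narrows the spread by choice, so the adjusted p of such a fit is no support for a call.

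The 6 metallothionein members lie in 1 cluster on chromosome 16 (build hg19, as in the files). MT2A spans chr16:56642111-56643409 (+), MT1E chr16:56659387-56661024 (+), MT1M chr16:56666145-56667898 (+), MT1F chr16:56691606-56694610 (+), MT1G chr16:56700643-56701977 (−) and MT1X chr16:56716336-56718108 (+). SLC30A1 spans chr1:211744910-211752084 (−). All 7 are annotated as protein coding. Promoter sequences were at hand for 3 of the 7, MT2A, MT1X and SLC30A1, from RefSeq on GRCh38.p14. The 250 bases before each start are shown because MTF1 is held to act on MT2A and SLC30A1 alike. In HPNE residual medium minus untreated wells, MT2A was at 1.61 and SLC30A1 at −0.78 on log2(FPKM + 1). Capitals mark the core of the metal response element, TGCACNC or TGCGCNC, on either strand, with no overlap between cores.
MT2A is the stretch chr16:56608334-56608583 (+), MT1X chr16:56682220-56682469 (+) and SLC30A1 chr1:211579162-211579411 (−), each printed 5′ to 3′ on the strand of the gene.
MT2A: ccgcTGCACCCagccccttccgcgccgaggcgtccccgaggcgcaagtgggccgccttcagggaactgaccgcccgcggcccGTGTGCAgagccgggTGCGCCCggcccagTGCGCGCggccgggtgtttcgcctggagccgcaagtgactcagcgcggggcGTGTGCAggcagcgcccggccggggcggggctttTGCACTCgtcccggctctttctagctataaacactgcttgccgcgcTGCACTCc
MT1X: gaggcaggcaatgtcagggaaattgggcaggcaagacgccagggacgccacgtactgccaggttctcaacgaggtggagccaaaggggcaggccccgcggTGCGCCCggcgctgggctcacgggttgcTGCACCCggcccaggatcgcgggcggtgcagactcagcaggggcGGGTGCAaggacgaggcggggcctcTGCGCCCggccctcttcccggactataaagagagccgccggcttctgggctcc
SLC30A1: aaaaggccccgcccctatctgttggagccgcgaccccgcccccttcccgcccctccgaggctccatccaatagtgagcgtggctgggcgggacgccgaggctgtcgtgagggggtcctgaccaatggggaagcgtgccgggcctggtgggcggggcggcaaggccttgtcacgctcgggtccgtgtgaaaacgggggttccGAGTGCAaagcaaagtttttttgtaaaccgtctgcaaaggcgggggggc
The MT2A window held 7 cores, 5 on the strand of the gene and 2 on the opposite strand. The MT1X window held 4, and the SLC30A1 window 1, at 49 to 43 bases before the start on the opposite strand. Of 35116 RefSeq promoter windows of this length, 24.8% held at least 1 core, 0.370% at least 4 and 0.0313% at least 7. The windows are rich in G and C (73.2%, 70.0% and 66.4%). A core is a match of letters and was not shown here to be a binding site.

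**Figure D1:**
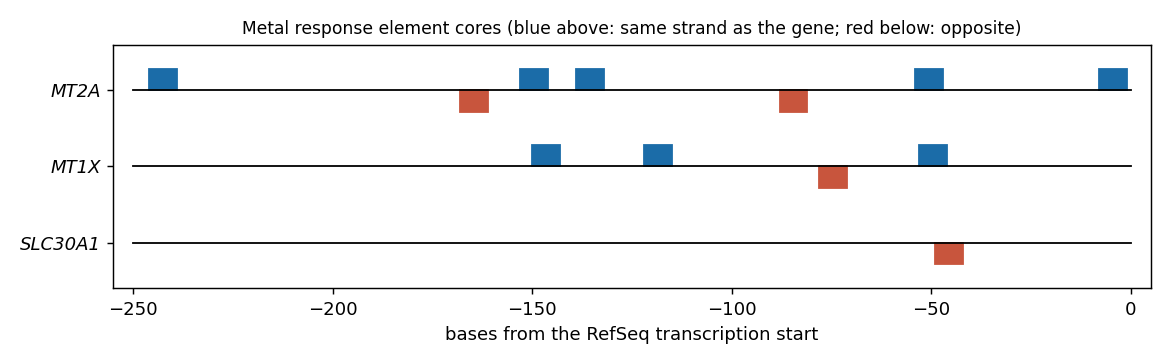
Positions of metal response element cores in the 250 bases before the RefSeq start of MT2A, MT1X and SLC30A1; the x axis is the distance from the start in bases. Blue blocks above a line are cores on the strand of the gene and red blocks below are cores on the opposite strand; MT2A has 7, MT1X 4 and SLC30A1 1.

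MT2A, the metallothionein made in most tissues, was the most abundant member in every library and ranked between 1 and 30 among all genes by FPKM. In HPNE its 3 libraries read 857, 940 and 1386 FPKM untreated and 3619, 3530 and 2507 FPKM in residual medium. They read 2438, 2041 and 2199 FPKM with PANC-1 EVs and 2158, 2503 and 2521 FPKM with PPCL-68 EVs. The untreated HPNE libraries were thus all below the other 9, and residual medium replicate 3 lay among the EV libraries. In HPDE, MT2A read 2313, 2775 and 2443 FPKM untreated and 2805, 2609 and 2826 FPKM in residual medium. It read 1984, 2749 and 1910 FPKM with PANC-1 EVs and 2407, 2026 and 1825 FPKM with PPCL-68 EVs. The HPDE groups overlapped, except that all PPCL-68 EV libraries were below all residual medium libraries. Over the 8 groups the means ran from 1061 ± 285 FPKM (SD, n = 3) in untreated HPNE to 3219 ± 618 FPKM (SD, n = 3) in HPNE residual medium. Only untreated HPNE lay clear of its neighbour in that order.

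MT1E, the second most abundant member, read 108, 121 and 138 FPKM in untreated HPNE and 298, 309 and 296 FPKM in HPNE residual medium. With PANC-1 EVs it read 227, 227 and 244 FPKM, and with PPCL-68 EVs 329, 370 and 339 FPKM. The 4 HPNE groups did not overlap, and PPCL-68 EVs gave the highest levels of the series. In HPDE it read 233, 237 and 233 FPKM untreated and 171, 192 and 211 FPKM in residual medium. With PANC-1 EVs it read 229, 282 and 233 FPKM, and with PPCL-68 EVs 207, 188 and 169 FPKM. Here untreated and PANC-1 EV libraries overlapped, as did residual medium and PPCL-68 EV libraries. As a share of MT2A, MT1E was lowest in HPDE residual medium (6.97% ± 0.76, SD, n = 3) and highest in HPNE with PPCL-68 EVs (14.5% ± 0.94, SD, n = 3), both taken on the FPKM scale.

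**Figure D2:**
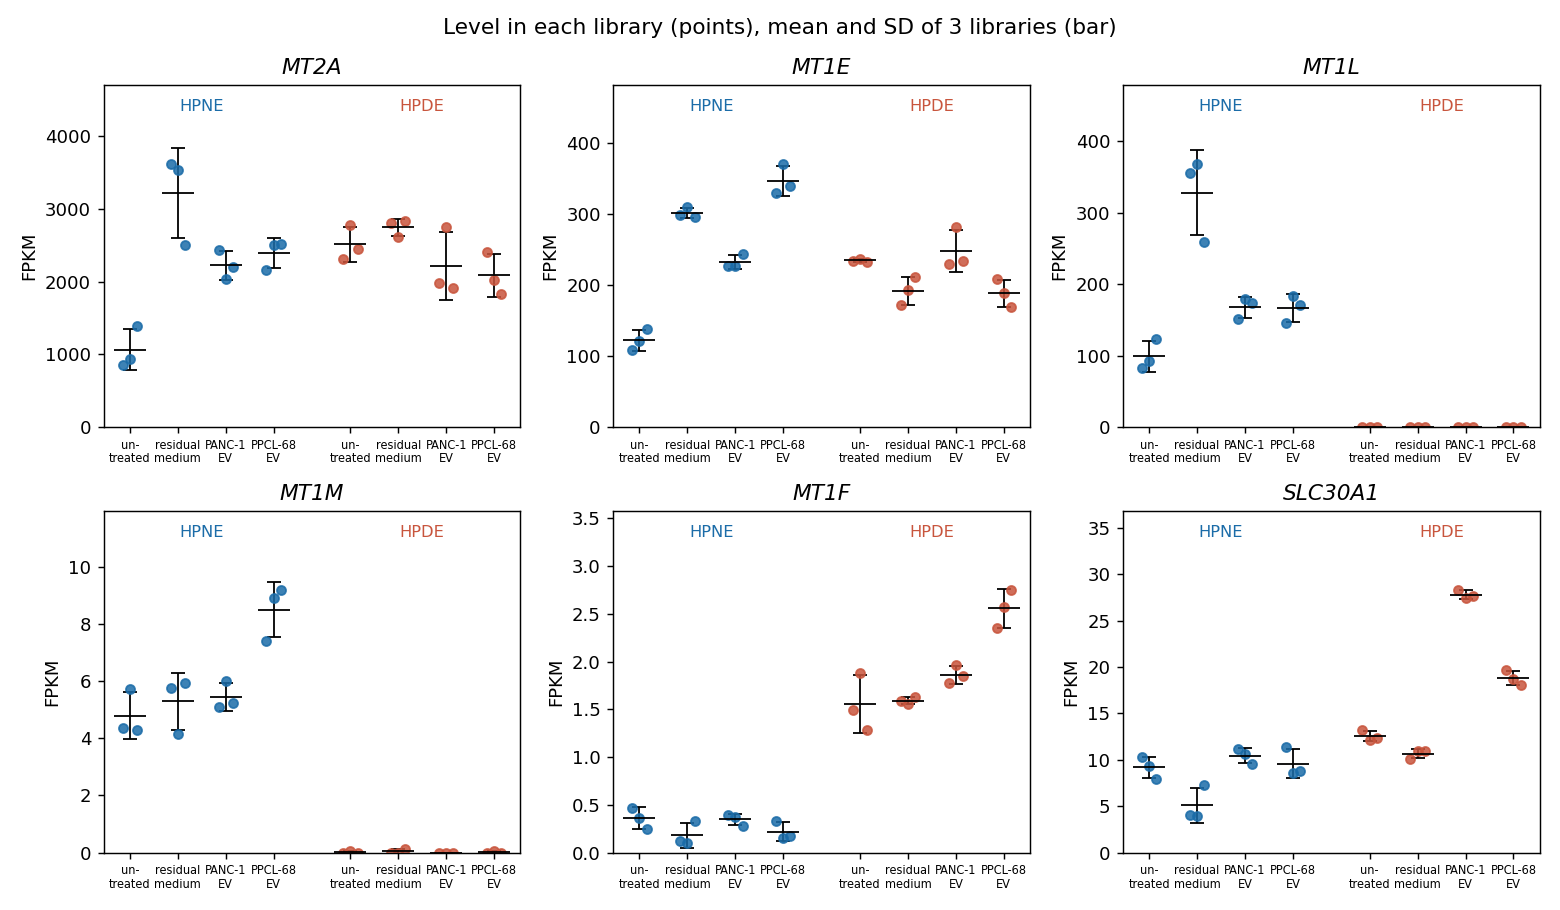
FPKM (y axis, from 0) of MT2A, MT1E, MT1L, MT1M, MT1F and SLC30A1 in each library (points) with the mean and SD of 3 libraries (bars) for the 4 treatments of HPNE (blue) and HPDE (red). Untreated HPNE is lowest for MT2A (857 to 1386 FPKM), MT1M and MT1L are near 0 in HPDE, and SLC30A1 is highest in HPDE with PANC-1 EVs (27.5 to 28.4 FPKM).

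MT1M was close to absent in HPDE, and MT1F was lower in HPNE. MT1M, a metallothionein of more restricted expression, had 2144 reads over the 12 HPNE libraries and 8 over the 12 HPDE libraries, of which 9 had none. In HPNE it read 4.36, 5.73 and 4.29 FPKM untreated, 5.76, 4.15 and 5.95 FPKM in residual medium and 5.10, 5.99 and 5.25 FPKM with PANC-1 EVs. With PPCL-68 EVs it read 7.39, 8.92 and 9.20 FPKM, above every other library. MT1F had 188 reads over the HPNE libraries, at 0.0960 to 0.472 FPKM, and 1246 over the HPDE libraries. In HPDE it read 1.50, 1.88 and 1.28 FPKM untreated, 1.58, 1.55 and 1.63 FPKM in residual medium, 1.77, 1.96 and 1.85 FPKM with PANC-1 EVs and 2.35, 2.57 and 2.75 FPKM with PPCL-68 EVs. For MT1F too the PPCL-68 EV libraries of HPDE lay above all others.

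MT1X and MT1G were close to the limit of detection. MT1X had 11 to 48 reads in every library (0.192 to 0.731 FPKM), and its 8 groups overlapped along the whole order of means. MT1G, a metallothionein of epithelia, had 0 to 24 reads; the 24 came from untreated HPNE replicate 3, where the other two untreated HPNE libraries had 2 and 1. Neither reached a mean of 1 FPKM in either line, so neither was tested. Of the 12 other metallothionein rows, MT1L and MT1A reached 10 reads in a library. MT1L, annotated as a pseudogene at chr16:56651388-56652730 (+) between MT2A and MT1E, read 81.8, 91.9 and 123 FPKM in untreated HPNE and 356, 369 and 259 FPKM in HPNE residual medium. It read 151, 179 and 174 FPKM with PANC-1 EVs and 146, 183 and 170 FPKM with PPCL-68 EVs. In FPKM the MT1L row stood above MT1E in 2 of the 3 residual medium libraries. That order rests on the lengths used, 411 bases for MT1L and 729 for MT1E. In reads MT1L was below MT1E in both of these libraries (6274 against 9332 and 5016 against 7457). In HPDE the same row held 7 reads in all 12 libraries together. MT1A had 1 to 20 reads in the HPNE libraries and 0 in each HPDE library; at the 3 reads a count of 0 allows, that is up to 0.259 FPKM (counting error only).

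Metallothionein genes are near copies of each other, and how reads that fit several places were counted is not given in the sources used here. Of all stretches of 50 bases in the GENCODE transcripts of each gene, the share also found in transcripts of another gene was 3.02% for MT2A, 7.10% for MT1E, 1.22% for MT1F, 9.87% for MT1M, 16.5% for MT1G and 18.3% for MT1X. It was 4.42% for MT1L and 0 for SLC30A1. The 16 shared stretches of MT1L were all shared with MT1P3, whose own row held 0 reads in every library. Most shared stretches of MT1X (273 of 341) were shared with AC026461.1 of the same transcript set. The MT1X row is divided by a length of 1727 bases, where its coding transcripts run from 450 to 538 bases. The MT1F row is divided by 1573 bases, where they run from 416 to 690, and the MT2A row by 903, where they run from 581 to 786. The levels of these genes per coding transcript are thus understated. MT1E and MT1M are divided by their longest coding transcript (729 and 829 bases), the shortest being 332 and 232. Shares and ratios between genes carry these lengths. The levels of MT1G, MT1X and MT1F are uncertain for these reasons. Whether the reads of the MT1L row come from MT1L or from a near copy was not settled either.

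SLC30A1 read 10.3, 9.33 and 7.94 FPKM in untreated HPNE and 4.03, 3.99 and 7.26 FPKM in HPNE residual medium. It read 11.2, 10.6 and 9.58 FPKM with PANC-1 EVs and 11.4, 8.53 and 8.80 FPKM with PPCL-68 EVs. Every HPNE residual medium library was below the other 9 HPNE libraries, replicate 3 by the smallest margin, while the other 3 HPNE groups overlapped. In HPDE it read 13.2, 12.2 and 12.3 FPKM untreated, 10.1, 10.9 and 11.0 FPKM in residual medium, 28.4, 27.5 and 27.6 FPKM with PANC-1 EVs and 19.7, 18.7 and 18.1 FPKM with PPCL-68 EVs. The 4 HPDE groups did not overlap. The order of the means ran from HPDE with PANC-1 EVs (27.8 ± 0.47 FPKM, SD, n = 3) to HPNE residual medium (5.09 ± 1.88 FPKM, SD, n = 3). HPDE residual medium, HPNE with either EV and untreated HPNE formed a run of overlapping neighbours.

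Differences between groups were tested with limma on log2(FPKM + 1) over all genes with a mean of at least 1 FPKM in the line, and a call is an adjusted p (Benjamini-Hochberg) under 0.05. Differences below are on that scale, with the standard error (SE), and they understate the change of genes near 1 FPKM. In HPNE 4 members were tested (MT2A, MT1E, MT1M and SLC30A1) and in HPDE 4 (MT2A, MT1E, MT1F and SLC30A1). The libraries are bulk RNA, so fewer cells carrying a transcript and less transcript per cell cannot be told apart. The comparisons with residual medium share its libraries, as those with untreated wells share theirs.

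In HPNE the residual medium itself went with large differences from untreated wells. MT2A rose by 1.61 (SE 0.21, adjusted p = 0.000355), the 113th largest rise among 11503 genes. MT1E rose by 1.30 (SE 0.10, adjusted p = 1.59e-05). SLC30A1 fell by 0.78 on the log2 scale (SE 0.18, adjusted p = 0.00742), and its mean in residual medium was 0.555 times that of untreated wells. MT1M differed by 0.11 (SE 0.14, adjusted p = 0.521). Thus 3 of 4 tested members passed, 2 up and 1 down, where 43.9% of all genes tested passed. Without the libraries that lay apart the differences were larger, at 1.99 for MT2A, 1.40 for MT1E and −1.11 for SLC30A1. The MT1L row rose too, by 1.72 (SE 0.17, adjusted p = 6.64e-05).

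Against residual medium, HPNE with PANC-1 EVs showed higher SLC30A1 and lower MT1E. SLC30A1 rose by 0.95 (SE 0.18, adjusted p = 0.00530). MT1E fell by 0.37 (SE 0.10, adjusted p = 0.0228). That call was lost when residual medium 1 or 2 or PANC-1 EV 1 or 2 was left out (adjusted p 0.0539 to 0.0841), and in a fit of only the libraries compared (adjusted p = 0.0536). MT2A differed by −0.52 (SE 0.21, adjusted p = 0.0945) and MT1M by 0.05 (SE 0.14, adjusted p = 0.826). MT2A passed without residual medium 3 (−0.69, adjusted p = 0.0248). Without the 4 libraries that lay apart MT2A was at −0.75, SLC30A1 at 1.14 and MT1E at −0.37. That fit keeps the closest pairs, and its SE for MT2A was 0.06 by this choice. In all 2 of 4 members passed, 1 up and 1 down, against 24.2% of all genes.

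Against residual medium, HPNE with PPCL-68 EVs showed higher SLC30A1 and higher MT1M. SLC30A1 rose by 0.83 (SE 0.18, adjusted p = 0.00528) and MT1M by 0.60 (SE 0.14, adjusted p = 0.00611). MT1E differed by 0.20 (SE 0.10, adjusted p = 0.140) and MT2A by −0.41 (SE 0.21, adjusted p = 0.144). So 2 of 4 passed, both up, against 39.9% of all genes. MT2A passed without residual medium 3 (−0.58, adjusted p = 0.0409). Without the 4 libraries apart SLC30A1 was at 0.95, MT1M at 0.77, MT2A at −0.51 and MT1E at 0.22, in a fit that narrows the spread by choice. The MT1L row fell with both EVs, by 0.95 with PANC-1 EVs (adjusted p = 0.00380) and by 0.96 with PPCL-68 EVs (adjusted p = 0.00163).

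Against untreated wells the same EV libraries of HPNE gave another picture. With PANC-1 EVs, MT2A rose by 1.10 (SE 0.21, adjusted p = 0.00545) and MT1E by 0.93 (SE 0.10, adjusted p = 0.000238). SLC30A1 differed by 0.18 (SE 0.18, adjusted p = 0.516) and MT1M by 0.16 (SE 0.14, adjusted p = 0.428). With PPCL-68 EVs, MT2A rose by 1.20 (SE 0.21, adjusted p = 0.00113), MT1E by 1.50 (SE 0.10, adjusted p = 3.31e-06) and MT1M by 0.72 (SE 0.14, adjusted p = 0.00193). SLC30A1 differed by 0.05 (SE 0.18, adjusted p = 0.842). These are 2 of 4 members for PANC-1 EVs, where 21.1% of all genes passed, and 3 of 4 for PPCL-68 EVs, where 42.5% passed. Without the 4 libraries that lay apart MT2A was at 1.24 and 1.48, MT1E at 1.04 and 1.63, and MT1M at 0.14 and 0.74 for PANC-1 and PPCL-68 EVs. MT2A and MT1E in HPNE were thus above untreated wells in all 3 treated groups, while SLC30A1 differed from untreated wells past the threshold only in residual medium.

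In HPDE the leading member was SLC30A1. Against residual medium it rose by 1.30 with PANC-1 EVs (SE 0.05, adjusted p = 4.29e-11), to 2.60 times the residual medium mean, and ranked 89th among the rises of 12223 genes. With PPCL-68 EVs it rose by 0.76 (SE 0.05, adjusted p = 5.78e-09), to 1.76 times that mean. Leaving out any 1 library moved these values only between 1.27 and 1.32, and between 0.73 and 0.79.

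The metallothioneins of HPDE moved less, and not as 1 block. With PANC-1 EVs, MT1E rose by 0.37 (SE 0.09, adjusted p = 0.00214) and MT2A fell by 0.33 (SE 0.13, adjusted p = 0.0344), though PANC-1 EV replicate 2 lay within the range of residual medium. MT1F differed by 0.14 (SE 0.09, adjusted p = 0.167). The MT2A call was lost without PANC-1 EV 1 or 3 or residual medium 1 or 3 (adjusted p 0.0838 to 0.151) and with size factors (adjusted p = 0.0699). With PPCL-68 EVs, MT1F rose by 0.46 (SE 0.09, adjusted p = 0.000331), MT2A fell by 0.41 (SE 0.13, adjusted p = 0.0110) and MT1E differed by −0.02 (SE 0.09, adjusted p = 0.838). MT2A missed the threshold without PPCL-68 EV 3 (−0.31, adjusted p = 0.0565). Each EV gave 3 of 4 members, 2 up and 1 down, where 63.3% of all genes passed with PANC-1 EVs and 67.7% with PPCL-68 EVs, so these counts lie near the background.

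**Figure D3:**
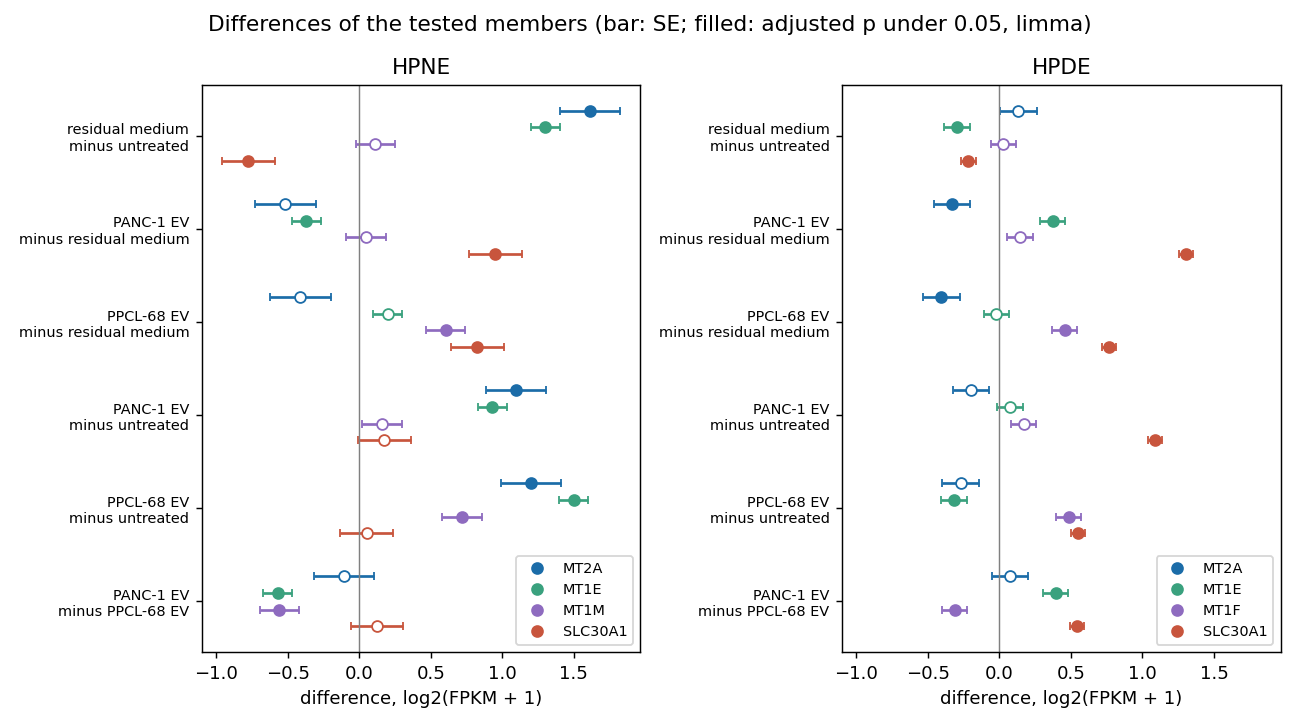
Differences on log2(FPKM + 1) (x axis) of the 4 tested members in 6 comparisons for HPNE (left) and HPDE (right), with SE bars; filled points have an adjusted p under 0.05. SLC30A1 lies at 0.95 and 0.83 for the EVs against residual medium in HPNE and at 1.30 and 0.76 in HPDE, while MT2A lies below 0 in all 4.

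Residual medium against untreated wells gave small differences in HPDE. SLC30A1 fell by 0.22 (SE 0.05, adjusted p = 0.00758) and MT1E fell by 0.30 (SE 0.09, adjusted p = 0.0307). MT2A differed by 0.13 (SE 0.13, adjusted p = 0.496) and MT1F by 0.03 (SE 0.09, adjusted p = 0.861). The count was 2 of 4, both down, against 20.0% of all genes. The MT1E call was lost without any 1 of the untreated libraries or without residual medium 1 or 2 (adjusted p 0.0589 to 0.133). Against untreated wells, SLC30A1 rose by 1.09 with PANC-1 EVs (SE 0.05, adjusted p = 1.78e-10) and by 0.55 with PPCL-68 EVs (SE 0.05, adjusted p = 1.82e-07). MT1F rose by 0.48 (SE 0.09, adjusted p = 0.000205) and MT1E fell by 0.32 (SE 0.09, adjusted p = 0.00562) with PPCL-68 EVs. That made 1 of 4 members for PANC-1 EVs against 60.6% of all genes, and 3 of 4 for PPCL-68 EVs against 66.3%. MT2A stood at −0.20 (SE 0.13, adjusted p = 0.193) and −0.27 (SE 0.13, adjusted p = 0.0720). The first passed without PANC-1 EV 2 (−0.36, adjusted p = 0.00935), and the second passed without PPCL-68 EV 1 (−0.38, adjusted p = 0.0214), with limma voom (adjusted p = 0.0231) and with only the libraries compared (adjusted p = 0.0374). MT1F with PANC-1 EVs was at 0.17 (SE 0.09, adjusted p = 0.106) and passed without untreated 2 (0.26, adjusted p = 0.0193).

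The 2 kinds of EV were also compared directly. In HPNE, MT1E was lower with PANC-1 than with PPCL-68 EVs by −0.57 (SE 0.10, adjusted p = 0.0121) and MT1M by −0.56 (SE 0.14, adjusted p = 0.0422). MT2A (−0.11, SE 0.21, adjusted p = 0.812) and SLC30A1 (0.12, SE 0.18, adjusted p = 0.733) did not pass. Without the libraries apart MT2A was at −0.25, MT1E at −0.59 and MT1M at −0.61. Same-numbered libraries of these EV groups varied together (correlations 0.565, 0.292 and 0.500). MT1M no longer passed once replicate number entered as a block (adjusted p = 0.0667), leaving 1 of the 2 calls. The MT1M call was also lost without any 1 of PANC-1 EV 1, 2 or 3 or PPCL-68 EV 2 or 3 (adjusted p 0.0881 to 0.156). The MT1E call was lost without PANC-1 EV 2 (adjusted p = 0.0594) or PPCL-68 EV 2 (adjusted p = 0.0687). Over all genes 5.47% passed. In HPDE, SLC30A1 was higher with PANC-1 EVs by 0.54 (SE 0.05, adjusted p = 8.00e-07) and MT1E by 0.39 (SE 0.09, adjusted p = 0.00215). MT1F was lower by −0.31 (SE 0.09, adjusted p = 0.00871) and MT2A differed by 0.08 (SE 0.13, adjusted p = 0.651). These are 3 of 4 members against 50.1% of all genes.

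Whether the lines differed was tested as an interaction over all 24 libraries, with HPDE minus HPNE as the sign and 5 members tested. Among these, MT1F and MT1M reached the mean of 1 FPKM only through 1 line. For residual medium minus untreated, MT2A gave −1.48 (SE 0.25, adjusted p = 0.000261), MT1E −1.60 (SE 0.14, adjusted p = 1.07e-07) and SLC30A1 0.56 (SE 0.20, adjusted p = 0.0324). These are 3 of 5 members, against 38.1% of all genes. The SLC30A1 value missed the threshold without any 1 of HPNE untreated 1 or 2, HPNE residual medium 1 or 2, HPDE untreated 2 or 3, or HPDE residual medium 2 or 3 (adjusted p 0.0585 to 0.101), and in a fit of only the libraries compared (adjusted p = 0.0856). It was 0.89 without the 4 HPNE libraries that lay apart. MT1F gave 0.23 (SE 0.13, adjusted p = 0.165), and 0.32 (adjusted p = 0.0434) without HPNE residual medium 3 and 0.38 without the 4 libraries. MT2A and MT1E were then at −1.86 and −1.70. For PANC-1 EVs against residual medium only MT1E differed between the lines (0.74, SE 0.14, adjusted p = 0.000815), which is 1 of 5 members against 21.2% of all genes. SLC30A1 gave 0.35 (SE 0.20, adjusted p = 0.212) and MT2A 0.19 (SE 0.25, adjusted p = 0.630). For PPCL-68 EVs against residual medium, SLC30A1 gave −0.06 (SE 0.20, adjusted p = 0.845) and MT2A 0.01 (SE 0.25, adjusted p = 0.989). MT1F (0.41, SE 0.13, adjusted p = 0.0258) and MT1M (−0.64, SE 0.16, adjusted p = 0.00489) were past the threshold, as were 25.7% of all genes. Both involve a line with few reads of the gene (MT1F in HPNE, MT1M in HPDE), so they are not counted as line differences. With 8 reads over the 12 HPDE libraries, the MT1M value largely returns its HPNE rise of 0.60 with the sign reversed. Neither gene passed with a pseudocount of 0.1 (adjusted p = 0.415 and 0.119). MT1F also missed the threshold without HPNE residual medium 3, HPNE PPCL-68 EV 2 or 3, or HPDE PPCL-68 EV 3 (adjusted p 0.0551 to 0.0636). Without the 4 HPNE libraries that lay apart MT1E was at 0.74 for PANC-1 EVs, and MT1F at 0.39 and MT1M at −0.80 for PPCL-68 EVs.

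Between untreated wells of the lines MT2A, MT1E and SLC30A1 passed the threshold, where 83.8% of all genes did. The other members of the 5 tested, MT1F and MT1M, reached the mean of 1 FPKM only through 1 line. MT1F had a mean of 0.278 FPKM in HPNE and 1.89 FPKM in HPDE, and MT1M 6.01 and 0.0222 FPKM. Their passing was thus largely set by the filter and is not counted. MT2A was higher in HPDE by 1.27 (SE 0.18, adjusted p = 1.70e-06) and MT1E by 0.94 (SE 0.10, adjusted p = 2.11e-08). MT1F was at 0.90 (SE 0.09) and MT1M at −2.50 (SE 0.11). SLC30A1 was higher by 0.42 (SE 0.14, adjusted p = 0.00921), but the median of all genes was 0.38 on the same scale. With median-of-ratios size factors that median was 0.03 and SLC30A1 stood at 0.04 (adjusted p = 0.800). Without untreated HPNE 3 it was 0.33 (adjusted p = 0.0531), and without all 4 libraries that lay apart 0.33. The size factors put MT2A at 0.86 and MT1E at 0.53, both still past the threshold. MT1F and MT1M, which are not counted, were at 0.72 and −2.65. Without the libraries that lay apart MT2A was at 1.48, MT1E at 1.03, MT1F at 0.84 and MT1M at −2.56.

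MT2A and SLC30A1 are held to answer to the same factor, and their levels were set against each other library by library. The ratio of MT2A to SLC30A1 FPKM was 120 ± 48.4 (SD, n = 3) in untreated HPNE, 709 ± 315 in HPNE residual medium, 213 ± 18.8 with PANC-1 EVs and 256 ± 58.1 with PPCL-68 EVs. In HPDE it was 200.4 ± 26.5, 258 ± 19.0, 79.7 ± 17.6 and 111 ± 10.9 in the same order. In HPNE residual medium the ratio spread from 345 in replicate 3 to 897, all above the other 9 HPNE libraries. In HPDE every EV library (69.1 to 122) lay below every library without EVs (175 to 277). Across the 12 libraries of a line, which share their 4 treatments, log2 levels of MT2A and SLC30A1 had a Pearson r of −0.55 in HPNE and −0.60 in HPDE. MT2A and MT1E had 0.90 in HPNE and 0.21 in HPDE, and MT2A and the MT1L row had 0.92 in HPNE.

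**Figure D4:**
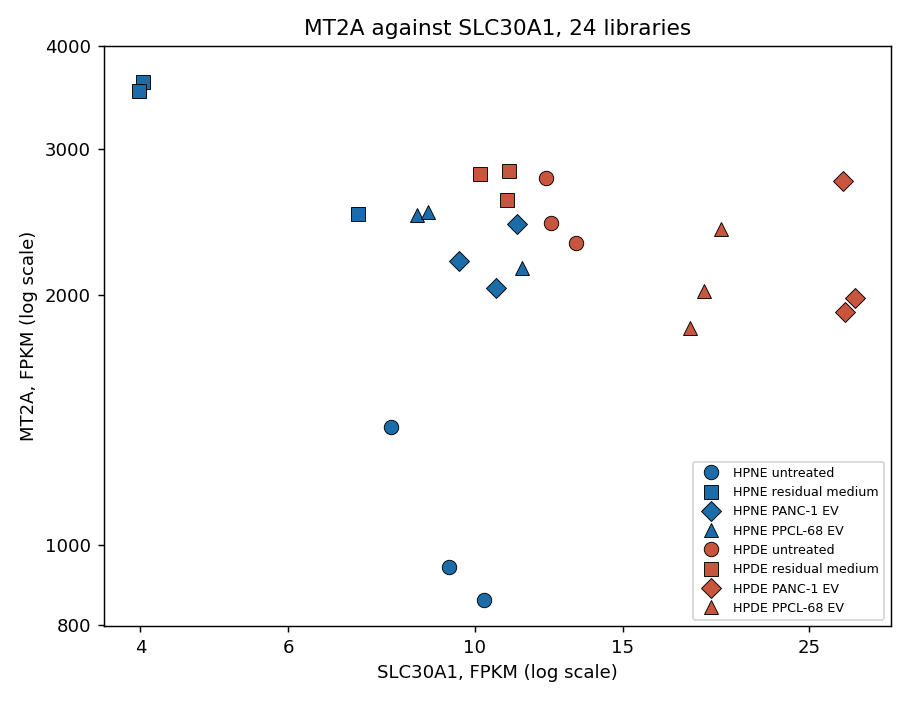
MT2A against SLC30A1 in FPKM, both axes on a log scale, 1 point per library, coloured by line with a shape for each treatment. HPNE residual medium lies at the upper left (SLC30A1 3.99 to 7.26 FPKM), and HPDE with PANC-1 EVs at the right (27.5 to 28.4 FPKM).

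The genes most like each of these by Pearson r over the 12 libraries of a line were listed as a description. For MT2A in HPNE they were EFTUD1 (0.984), LPXN (0.978) and GTPBP4 (0.975) of 11503 genes, and in HPDE C7orf73 (0.907), TP53RK (0.906) and NUDT2 (0.899) of 12223. For SLC30A1 they were EPS8 (0.986), FBXO25 (0.985) and SUV420H1 (0.982) in HPNE and ZNF790 (0.992), ERRFI1 (0.989) and ZC3H8 (0.988) in HPDE. No gene was on both lists of MT2A or both lists of SLC30A1, and the libraries share their treatments and depth.

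Other genes of zinc and copper handling were read from a list of 32 transporters, chaperones and the factor MTF1, of which 23 were tested in each line. In HPNE residual medium against untreated wells 8 passed, 5 up and 3 down. SLC39A14, a plasma membrane importer of zinc and iron, rose by 1.63 (SE 0.13, adjusted p = 1.59e-05), from 21.3 ± 2.73 to 67.6 ± 2.16 FPKM (SD, n = 3). COX17, a mitochondrial copper chaperone, rose by 1.22 and SLC39A13 by 0.27, while CCS, the copper chaperone of SOD1, fell by 0.80 and SLC39A11 fell by 0.49, and the vesicular exporter SLC30A4 fell by 0.32. With PANC-1 EVs against residual medium 4 passed in HPNE, 1 up and 3 down. The copper importer SLC31A1 rose by 0.35, COX17 fell by 0.79, SLC39A10, a plasma membrane zinc importer, fell by 0.72, and SLC39A7, which releases zinc from the endoplasmic reticulum, fell by 0.54. With PPCL-68 EVs 8 passed, 3 up and 5 down. SLC39A14 rose by 0.80, SLC31A1 by 0.67 and SLC30A7, which moves zinc into the Golgi, by 0.31. SLC39A10 fell by 0.89, SLC39A7 fell by 0.54 and SLC39A8 fell by 0.48. Medians over the 23 genes were 0.10, −0.07 and −0.08 in these 3 comparisons, against −0.05, 0.02 and 0.003 over all genes, and 43.9%, 24.2% and 39.9% of all genes passed.

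These HPNE counts depended on single libraries. Without the 4 libraries that lay apart, which narrows the spread by choice, they were 14 (10 up and 4 down), 8 (2 up and 6 down) and 14 (4 up and 10 down). For residual medium against untreated wells the count was 4 or 5 without untreated 1 or 2 or residual medium 1 or 2. For PANC-1 EVs it was 2 without PANC-1 EV 2 or residual medium 1 or 2 and 7 without residual medium 3. For PPCL-68 EVs it was 5 without residual medium 2.

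In HPDE 16 of the 23 passed with PANC-1 EVs against residual medium, 5 up and 11 down, and 17 with PPCL-68 EVs, 8 up and 9 down. SLC39A10 fell the most of the list with both, by 1.18 with PANC-1 EVs (SE 0.08, adjusted p = 2.25e-08) and by 1.48 with PPCL-68 EVs (SE 0.08, adjusted p = 1.22e-09). Its level was 14.4 ± 0.42 FPKM in residual medium, 5.81 ± 0.62 FPKM with PANC-1 EVs and 4.55 ± 0.49 FPKM with PPCL-68 EVs (SD, n = 3). MTF1 itself rose by 0.36 (adjusted p = 8.17e-05) and 0.50 (adjusted p = 2.10e-06). SLC30A7 rose by 0.35 and 0.58. SLC39A14 rose by 0.48 with PANC-1 EVs and SLC31A1 by 0.64 with PPCL-68 EVs. ATOX1, which hands copper to the copper pumps, fell by 0.69 and 0.80. COX17 fell by 0.61 with PANC-1 EVs and the superoxide dismutase SOD1 fell by 0.66 with PPCL-68 EVs. Of the other 5 tested zinc exporters of the SLC30 family 3 passed with each EV, 2 up and 1 down with PANC-1 EVs and 3 up with PPCL-68 EVs. Of 11 tested importers of the SLC39 family 7 passed with each, 1 up and 6 down with PANC-1 EVs and 3 up and 4 down with PPCL-68 EVs. Medians over the 23 genes were −0.15 and −0.07, against −0.04 and −0.03 over all genes, and 63.3% and 67.7% of all genes passed. Residual medium against untreated wells gave 7 calls in HPDE, 2 up (COX17 by 0.31 and SOD1 by 0.18) and 5 down, among them the copper pump ATP7A (fell by 0.29), SLC39A9 (fell by 0.20) and SLC30A6 (fell by 0.18). For all genes that share was 20.0%. The count was 2 or 4 without any 1 of untreated 1, 2 or 3 or residual medium 1 or 3.

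**Figure D5:**
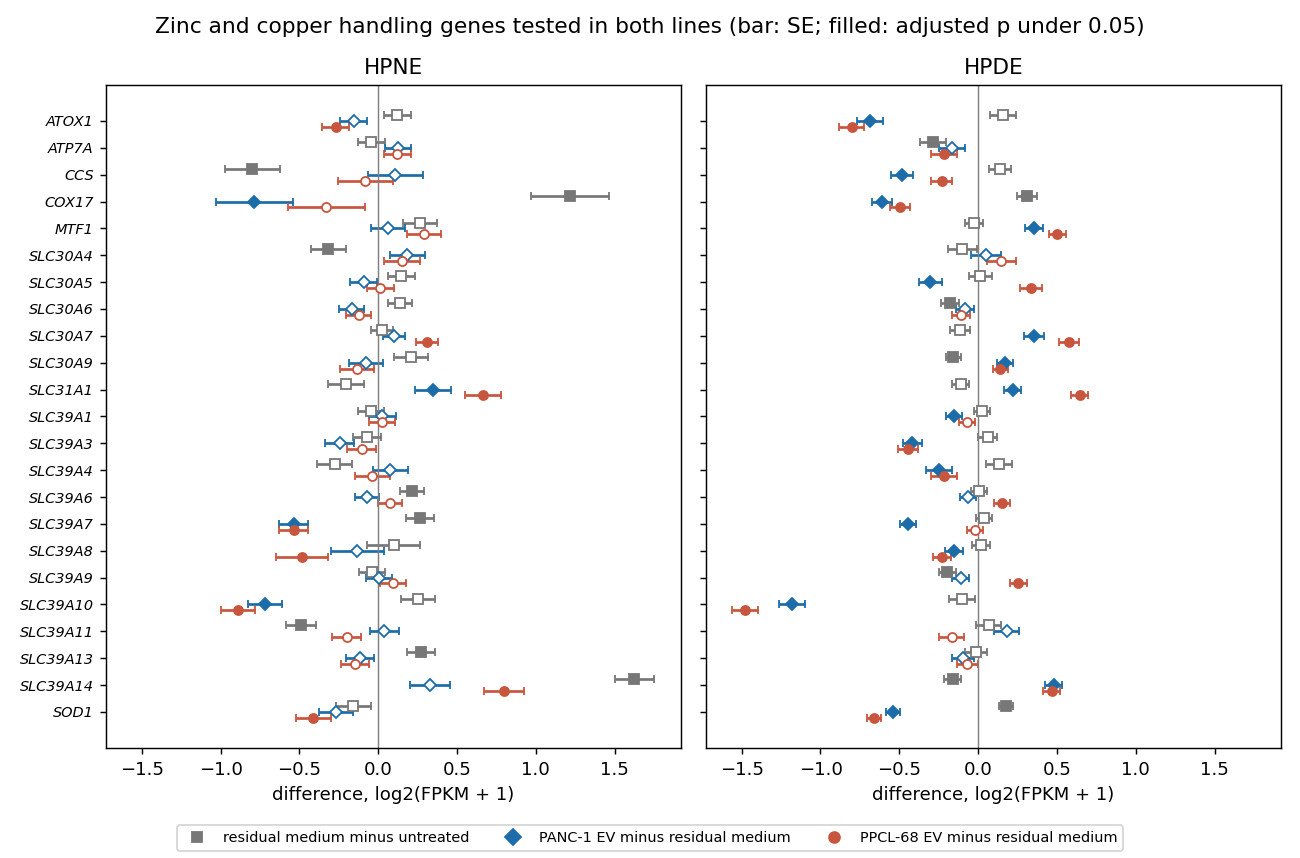
Differences on log2(FPKM + 1) (x axis) with SE bars for the 23 zinc and copper handling genes tested in both lines, HPNE left and HPDE right; grey squares are residual medium minus untreated, blue diamonds PANC-1 EV and red circles PPCL-68 EV minus residual medium, filled where the adjusted p is under 0.05. SLC39A10 lies lowest with both EVs in HPDE (−1.18 and −1.48), and SLC39A14 lies highest in HPNE for residual medium (1.63).

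The other known inducers of metallothioneins were followed through a list of 16 response genes, 15 of them tested in HPNE and 14 in HPDE. In HPNE residual medium against untreated wells 6 passed, all down, where 43.9% of all genes passed. HMOX1, the heme oxygenase of metal and oxidative stress, fell by 1.77 (SE 0.41, adjusted p = 0.00666), while TSC22D3 (fell by 1.63) and KLF9 (fell by 1.31) are glucocorticoid response genes. MT2A and MT1E rose in that same comparison. With PANC-1 EVs against residual medium 4 passed (against 24.2% of all genes), 2 up (KLF9 by 1.25 and GCLC, of glutathione synthesis, by 0.50) and 2 down (HSPA1A fell by 1.06 and HSPA1B fell by 0.53, near-identical heat shock genes whose reads cannot be told apart with certainty). With PPCL-68 EVs 8 passed (against 39.9% of all genes), 7 up and 1 down, led by TSC22D3 (2.32), HMOX1 (1.93) and KLF9 (1.61), with HSPA1A at −0.66. Medians over the 15 genes were −0.24, 0.26 and 0.48, against −0.05, 0.02 and 0.003 over all genes. TSC22D3 and KLF9 varied strongly within residual medium (50.9 ± 43.1 and 20.3 ± 14.0 FPKM, SD, n = 3). Without the 4 HPNE libraries that lay apart, which narrows the spread by choice, the counts were 12 (5 up and 7 down), 13 (9 up and 4 down) and 14 (10 up and 4 down). Without 1 library they were 2 or 3 for residual medium (untreated 1 or 2, residual medium 1), 1 or 2 for PANC-1 EVs (PANC-1 EV 1, residual medium 1 or 2) and 8 without residual medium 3. For PPCL-68 EVs they were 5 (residual medium 1 or 2, PPCL-68 EV 1) and 13 without residual medium 3.

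In HPDE 12 of 14 inducer response genes passed with PANC-1 EVs against residual medium, 7 up and 5 down, where 63.3% of all genes passed. The glucocorticoid genes SGK1 (1.67), TSC22D3 (1.61) and PER1 (0.79) rose, and the heat shock genes HSPA1A (−1.54), HSPA1B (−1.34) and DNAJB1 (−1.06) fell. With PPCL-68 EVs 13 passed (against 67.7% of all genes), 8 up and 5 down, with rises of TSC22D3 (1.66), HMOX1 (1.21) and HSPA6 (1.11) and falls of DNAJB1 (−0.73), HSPH1 (−0.63) and HSPA1A (−0.59). Of the 5 heat shock genes 4 were down with each EV, and of the 5 tested glucocorticoid genes 5 were up with PANC-1 EVs and 4 up and 1 down with PPCL-68 EVs. Residual medium against untreated wells gave 9 calls (against 20.0% of all genes), 5 up and 4 down, led by SGK1 (0.42), HMOX1 (0.37) and TXNRD1 (0.35), and by FKBP5 (−0.44), PER1 (−0.33) and KLF9 (−0.27). Medians over the 14 genes were 0.12, 0.63 and −0.01 in these 3 comparisons, against −0.04, −0.03 and −0.01 over all genes. What part these genes have in the levels of the metallothioneins was not tested.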

How the data were processed

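RNA of 24 wells was made into non-directional libraries with NEBNext Ultra II, per the labels' protocols, so reads carry no strand. The authors deposited 1 table of FPKM values per library, with gene length, position and type per gene. The submitters' processing notes name CASAVA, STAR, HTSeq, DESeq2 and hg19, with no versions, and the handling of reads with several matches is not given in the sources used here. Dividing FPKM by its smallest steps gave whole reads, within 0.02 of a read, for 100% of the values above 0 in each library (29209142 to 46490312 reads over genes), which were used for depth and for 1 alternative.

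Values were tested with limma 3.58.1 in R 4.3.3 on log2(FPKM + 1), with genes of a mean of at least 1 FPKM, over the 12 libraries of a line (8 residual degrees of freedom) or all 24 (16). p-values were adjusted over all genes tested by Benjamini-Hochberg, with a threshold of 0.05. The fit was also run on simulated reads, drawn independently for each library and with no library lying apart. That run therefore does not speak for the HPNE calls. The text names all 7 members, other metallothionein rows with at least 10 reads in a library, the 3 largest rises and 3 largest falls past the threshold in each list, and the 3 genes most like MT2A and SLC30A1. The members and lists were chosen with earlier results of these data known. Replicate numbers were checked for pairing by the correlation of deviations from the group means. Every pair exceeded 0.1 only between the PANC-1 and PPCL-68 EV groups of HPNE, so the block is given beside that result. Between untreated and residual medium of HPNE same-numbered libraries deviated in opposite directions (−0.392, −0.393 and −0.513). The 3 correlations for 2 groups are not independent, since deviations cancel out within a group. Intervals from counts of 0 cover counting error only. Core motifs were searched in RefSeq promoter windows, and shared stretches in GENCODE transcripts, both on GRCh38.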

Additional observations from a re-analysis of the deposited data

Results flagged for a closer look

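The interaction of line and treatment over 24 libraries passed the threshold for 6 pairs of member and comparison (HPDE minus HPNE, log2(FPKM + 1) scale). For residual medium minus untreated these were MT2A (−1.48), MT1E (−1.60) and SLC30A1 (0.56). The SLC30A1 call was lost in 8 of the 12 fits that each left out 1 library. For PANC-1 EVs minus residual medium it was MT1E (0.74), which fell in HPNE and rose in HPDE. For PPCL-68 EVs minus residual medium they were MT1F (0.41) and MT1M (−0.64). MT1M has 8 reads over the 12 HPDE libraries and MT1F 188 over the 12 HPNE libraries, so each was tested only through 1 line. Neither passed with a pseudocount of 0.1 or with limma voom.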

How the results depend on the processing

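Of 68 pairs of member and comparison, 49 kept their call under every alternative run (pseudocount 0.1, no filter, size factors, limma voom on recovered reads, only the libraries compared, replicate block, single libraries left out, and, chosen after seeing the data, without the 4 HPNE libraries apart). Over 947 combinations of such a pair and an alternative, many of which share a fit, 52 lost a call and 13 gained one. No called direction reversed. The fit without the libraries apart narrows the spread by choice, so calls kept or gained there are no support. Where not said otherwise the cause was not tested. Without the filter calls ended for MT1M (HPNE, PANC-1 minus PPCL-68 EV), MT1E (HPNE PANC-1 EV and HPDE residual medium), MT2A (HPNE PANC-1 EV minus untreated, HPDE both EVs minus residual medium), and the line differences of MT1F and SLC30A1.

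Member counts moved as follows. HPNE PANC-1 minus PPCL-68 EV went from 2 to 1 without the filter, with voom and with the block, where the numbers pair the libraries, and to 0 to 2 leaving out 1 library. HPNE PANC-1 EV minus residual medium went from 2 to 1 without the filter or with only the libraries compared (1 to 3 leaving out 1 library), and minus untreated from 2 to 1 without the filter. HPNE PPCL-68 EV minus residual medium went from 2 to 4 without the libraries apart. HPDE PANC-1 EV minus untreated gave 1 to 2 leaving out 1 library. HPDE residual medium minus untreated gave 1 without the filter and 1 to 2 leaving out 1 library, from 2. The line difference for PPCL-68 EVs went from 2 to 0 with pseudocount 0.1 or voom, 1 without the filter and 1 to 2 leaving out 1 library. These 2 were MT1F and MT1M, each tested only through 1 line.

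Zinc and copper counts moved for HPNE PANC-1 EVs from 4 to 2 without the filter or with only the libraries compared, 8 without the libraries apart and 2 to 7 leaving out 1 library. For HPNE PPCL-68 EVs 8 became 14 without the libraries apart and 5 to 9 leaving out 1. For HPNE residual medium 8 became 13 with size factors, 14 without the libraries apart and 4 to 10 leaving out 1. For HPDE residual medium 7 became 2 without the filter, 4 with the block and 2 to 6 leaving out 1. Inducer response counts moved for HPNE PANC-1 EVs from 4 to 1 without the filter, 2 with only the libraries compared, 13 without the libraries apart and 1 to 8 leaving out 1. For HPNE PPCL-68 EVs 8 became 5 without the filter, 14 without the libraries apart and 5 to 13 leaving out 1. For HPNE residual medium 6 became 12 without the libraries apart and 2 to 9 leaving out 1. In the other comparisons within a line not every pair of same-numbered libraries varied together, and the block changed no other call of a member. Reads limit MT1G, MT1X and, outside their lines, MT1M and MT1F.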
